A study of Mus musculus with 14 samples.

Results

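The 36 genes described here belong to the response to low oxygen and to glycolysis, and they were taken as a list of gene symbols. All 36 were found among the 28022 genes of the count table, and all 36 passed the filter on low counts. Their counts came from RNA-sequencing of 7 groups of mouse samples, all labelled C57BL/6J, with 2 libraries in each group and 20851489 to 35143325 counts per library. Mouse embryonic fibroblasts (MEFs) were the starting cells. Induced hepatic stem cells (iHepSCs) had been made from MEFs by lentiviral delivery of Oct4 and Hnf4α. They were cultured as a monolayer (2D-iHs), as a monolayer with induced endothelial cells (2D-iHEs), as hepatic organoids in a hydrogel of Matrigel and type I collagen (iHLOs), and as assembloids of iHepSCs with induced endothelial cells in the same hydrogel (iHEAs). The induced endothelial cells (iECs) came from a human fibroblast line through ETV2, so both co-cultures held human cells, and human reads could enter the table where they aligned to mouse genes, which was not tested. All 4 cultures received the same mixture of hepatic and endothelial media with oncostatin M, and the 3D cultures, begun as iHepSC spheroids, were shaken. The tissue groups were adult liver, from 6-week-old mice, and fetal liver from embryonic day E14.5, and the MEFs came from E13.5 embryos. The labels do not say whether the 2 libraries of a group came from separate cultures or animals, so p-values measure the spread between these libraries, which may be technical. The name of 1 of the 2 iHEA count columns begins like that of the second iHEA sample but ends in the code of the first, so it was assigned to the group only, as an unnumbered library. That it is a distinct second sample rests on this conflicting name, although the counts of both columns differ.

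Cells sense oxygen through prolyl hydroxylases that mark the alpha subunits of hypoxia-inducible factor (HIF) for destruction by the von Hippel-Lindau protein while oxygen is present. When oxygen falls, the alpha subunits persist, pair with ARNT and bind the core sequence ACGTG or GCGTG near target genes. Those targets raise glucose uptake and glycolysis, divert pyruvate from the mitochondria to lactate, export acid, call in blood vessels and modify collagen. In liver the oxygen level falls along the lobule, and adult hepatocytes use their own isoforms of some glycolytic enzymes, among them the L-type pyruvate kinase. HIF1α activity is set largely by the stability of the protein, which RNA-sequencing does not measure.

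The HIF core was looked for, as ACGTG or GCGTG on both strands, in promoter windows of 300 bases from RefSeq (GRCm38.p6, 250 bases before to 50 bases after a start site), and 31 of the 36 genes had a window there. *Epas1*, *Ndrg1*, *Plod2*, *Lox* and *Slc2a3* had none. At least 1 core was present in 35 of the 45 windows of these genes (77.8%), beside 14380 of all 32851 windows (43.8%). Counted by gene it was 28 of 31 (90.3%). That share has no background here, since some genes had several windows. The ACGTG form, which also lies inside the E-box CACGTG, was in 25 of the 45 windows (55.6%) and in 6447 of all windows (19.6%). A match describes the letters in the window and is no measurement of binding. The windows of 4 genes that fell in 3D culture or rose in it are printed 5′ to 3′ on the strand of the gene, with every core in capitals, to show how the density of the core differs among genes that changed. *Pgk1* (chrX:106186850-106187149, plus strand) held 2 cores, *Ldha* (chr7:46845554-46845853, plus strand) 5 and *P4ha2* (chr11:54100674-54100973, plus strand) 4, while the first window of *Pklr* (chr3:89135892-89136191, plus strand) held none.
*Pgk1*: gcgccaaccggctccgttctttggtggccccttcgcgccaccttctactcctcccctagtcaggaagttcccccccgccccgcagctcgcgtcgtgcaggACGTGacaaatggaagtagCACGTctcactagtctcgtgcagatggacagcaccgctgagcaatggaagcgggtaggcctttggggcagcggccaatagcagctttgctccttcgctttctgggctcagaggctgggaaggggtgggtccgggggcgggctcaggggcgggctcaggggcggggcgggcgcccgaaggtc
*Ldha*: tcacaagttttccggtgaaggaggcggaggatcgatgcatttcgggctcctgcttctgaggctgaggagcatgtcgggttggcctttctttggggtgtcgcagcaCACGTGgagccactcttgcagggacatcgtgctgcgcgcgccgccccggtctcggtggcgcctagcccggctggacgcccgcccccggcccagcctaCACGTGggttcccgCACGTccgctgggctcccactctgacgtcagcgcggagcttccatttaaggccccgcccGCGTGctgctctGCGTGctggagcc
*P4ha2*: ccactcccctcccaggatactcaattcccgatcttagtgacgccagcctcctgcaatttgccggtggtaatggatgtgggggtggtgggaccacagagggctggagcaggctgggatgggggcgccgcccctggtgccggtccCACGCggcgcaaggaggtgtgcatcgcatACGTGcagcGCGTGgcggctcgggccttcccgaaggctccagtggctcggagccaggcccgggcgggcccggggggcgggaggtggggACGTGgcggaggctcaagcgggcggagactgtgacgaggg
*Pklr*: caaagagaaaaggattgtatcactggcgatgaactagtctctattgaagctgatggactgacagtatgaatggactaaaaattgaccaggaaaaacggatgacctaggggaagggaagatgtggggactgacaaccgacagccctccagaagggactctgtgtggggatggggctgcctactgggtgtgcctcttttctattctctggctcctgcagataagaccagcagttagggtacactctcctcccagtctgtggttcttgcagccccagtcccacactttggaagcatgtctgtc
Of these, *Pgk1* and *Ldha* were lower in 3D cultures, whereas *P4ha2* and *Pklr* were higher. The second window of *Pklr* held no core either, and that of *Ldha* (chr7:46846832-46847131, plus strand) held 2 and no ACGTG.

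Levels are given as CPM, the counts scaled to library size with TMM factors from all 14 libraries, and differences as log2 fold changes ± standard error from edgeR's quasi-likelihood test with Benjamini-Hochberg adjusted p-values over all genes tested. A gene is called higher or lower at an adjusted p below 0.05. Fold changes among the cultures were fitted with scaling factors of those 8 libraries, so they can differ somewhat from the ratio of the CPM printed. Where 1 library is left out, its group holds a single library, and the spread comes from the other groups, on the assumption that the lone library varies as they do. In 3D against 2D, however, each side pools both its groups, so the reduced side still adds to the spread. Markers went with the labels only in part. *Alb*, the defining hepatocyte protein gene, had 2 to 210 counts in any culture library, and the summed level of 6 hepatocyte markers was 281 to 391 CPM in cultures against 542585 to 581152 CPM in adult liver, with *Serpina1a* at or below 3 counts in all 4 culture groups. Fibroblast markers summed to 23131 to 24559 CPM in MEFs and to at most 12.3 CPM in cultures. Endothelial markers summed to 407 to 474 CPM in 2D and 864 to 1337 CPM in 3D, including cultures without iECs, and *Pecam1* did not exceed 0.670 CPM in any of them. In cultures single genes carried most of these sums, so they are not levels of a whole class. The sums are of CPM and not per kilobase of exon, so longer genes weigh more in them. Per kilobase, *Cdh5* (86.1 to 103.7) lay above *Vwf* (26.1 to 47.8) in 3D. *Apoa1* had 199.8 to 313 CPM of the hepatocyte sum, *Cd68* 18.0 to 23.3 CPM of a leukocyte sum of 20.03 to 24.7 CPM with *Ptprc* and *Adgre1* at no more than 3 counts, and *Cdh5* 390 to 443 CPM of the endothelial sum in 2D, while in 3D *Vwf* (419 to 767 CPM) and *Cdh5* (362 to 436 CPM) made up most of it.

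**Figure D1:**
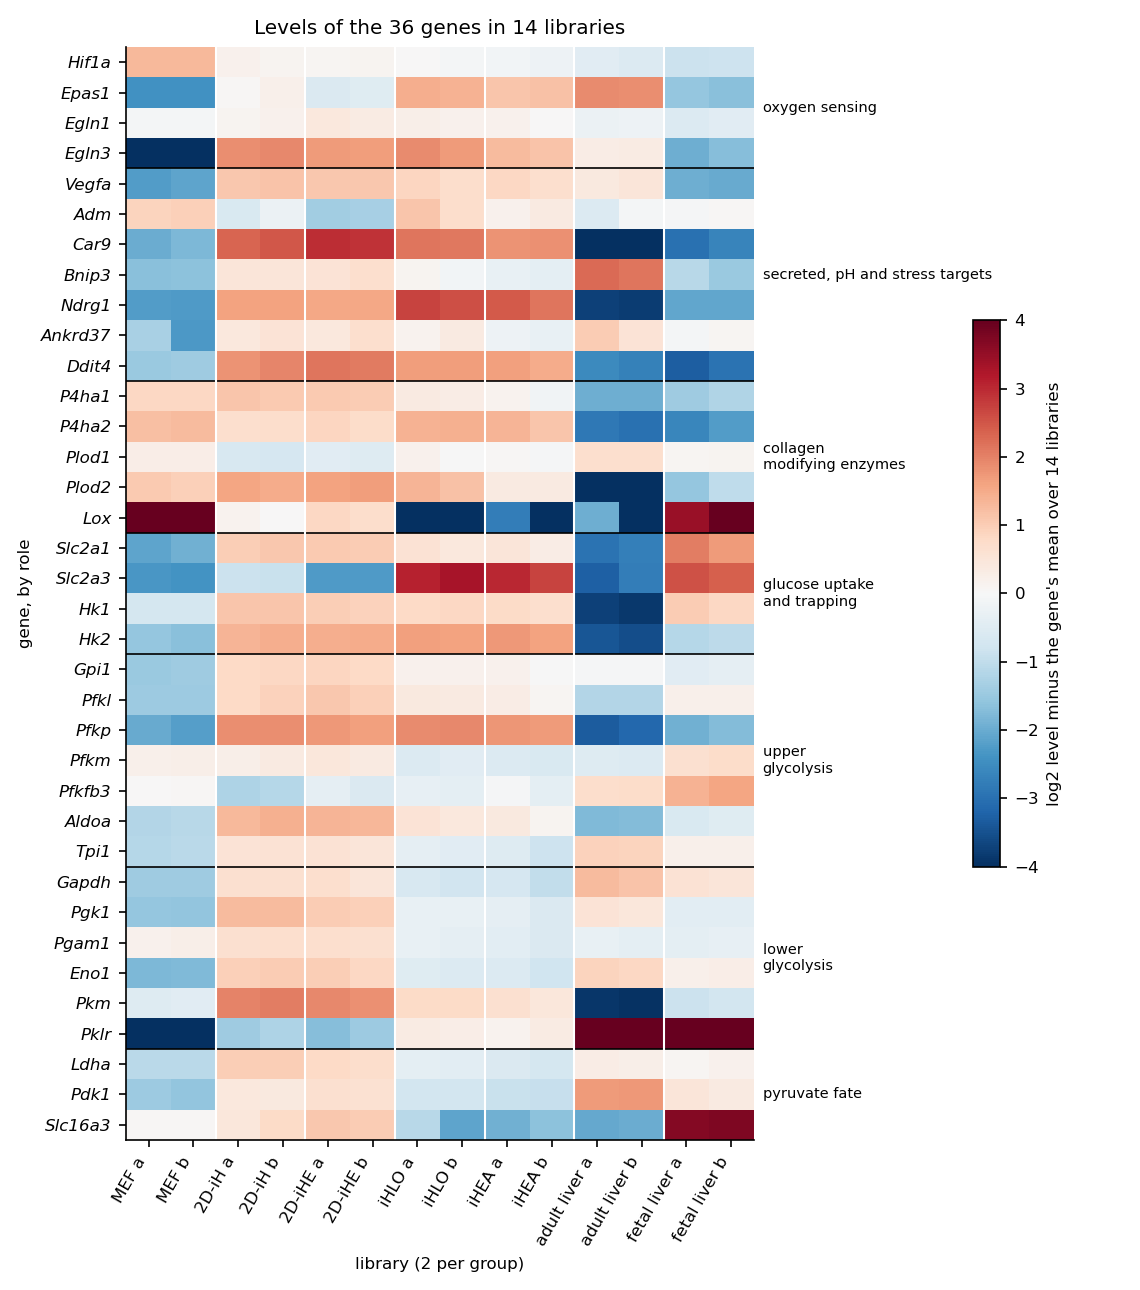
Heat map of the 36 genes (rows, ordered by role) in the 14 libraries (columns, 2 per group, named a and b in the order of the table). Colour gives the log2 level of a gene minus its mean over the 14 libraries, drawn between -4 and 4, and most of the genes of lower glycolysis are redder in the 4 2D libraries than in the 4 3D libraries or in MEFs.

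The first comparison asked what a 3D hydrogel did to these genes, with both 2D groups (4 libraries) set against both 3D groups (4 libraries). Most of the genes were lower in 3D. Of the 36 genes, 24 (66.7%) were called lower and 9 (25%) higher, and 3 were not called, where the background over all 13409 genes tested was 37.2% lower and 38.7% higher. When a change of 1 or more on the log2 scale was also asked for, 10 genes were lower and 4 higher, beside 11.3% and 12.7% of all genes. With CPM scaled over the 8 culture libraries, every 3D library lay below every 2D library for 23 of the genes and above it for 9, and 4 overlapped, beside 35% and 36.3% of all genes. On the CPM scaled over 14 libraries that are printed here, 24 lay below, 8 above and 4 overlapped, with *Ankrd37* then below and *Pfkfb3* overlapping. Over the 36 genes the log2 fold change had a median of -0.58, and over all genes tested of 0.014. The same 22 genes were called lower and the same 9 higher in the comparison of iHLOs with 2D-iHs and in that of iHEAs with 2D-iHEs, which share no library. The backgrounds there were 35.3% lower and 36.9% higher without iECs, and 34.9% lower and 36% higher with iECs, where 4 further genes were called lower. These 22 and 9 were 100% of the genes called in iHLOs in each direction, against 88.7% and 87.9% for all genes called there. Cell division markers moved with culture form too: 6 of 6 were lower in 3D, with a summed level of 1138 to 1249 CPM in 2D and 208 to 246 CPM in 3D. Of the markers tested, 4 of 5 endothelial, 2 of 4 hepatocyte and 1 of 1 erythroid were called higher, 2 of 4 fibroblast higher and 1 lower (sums of 3.73 to 12.3 CPM in 2D and 4.35 to 11.1 CPM in 3D), and 1 of 2 leukocyte lower. The part of these markers in the results was not tested. Hydrogel, spheroid form and shaking came together in the 3D cultures and cannot be told apart. In bulk samples, fewer cells that express a gene and less RNA per cell cannot be told apart.

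**Figure D2:**
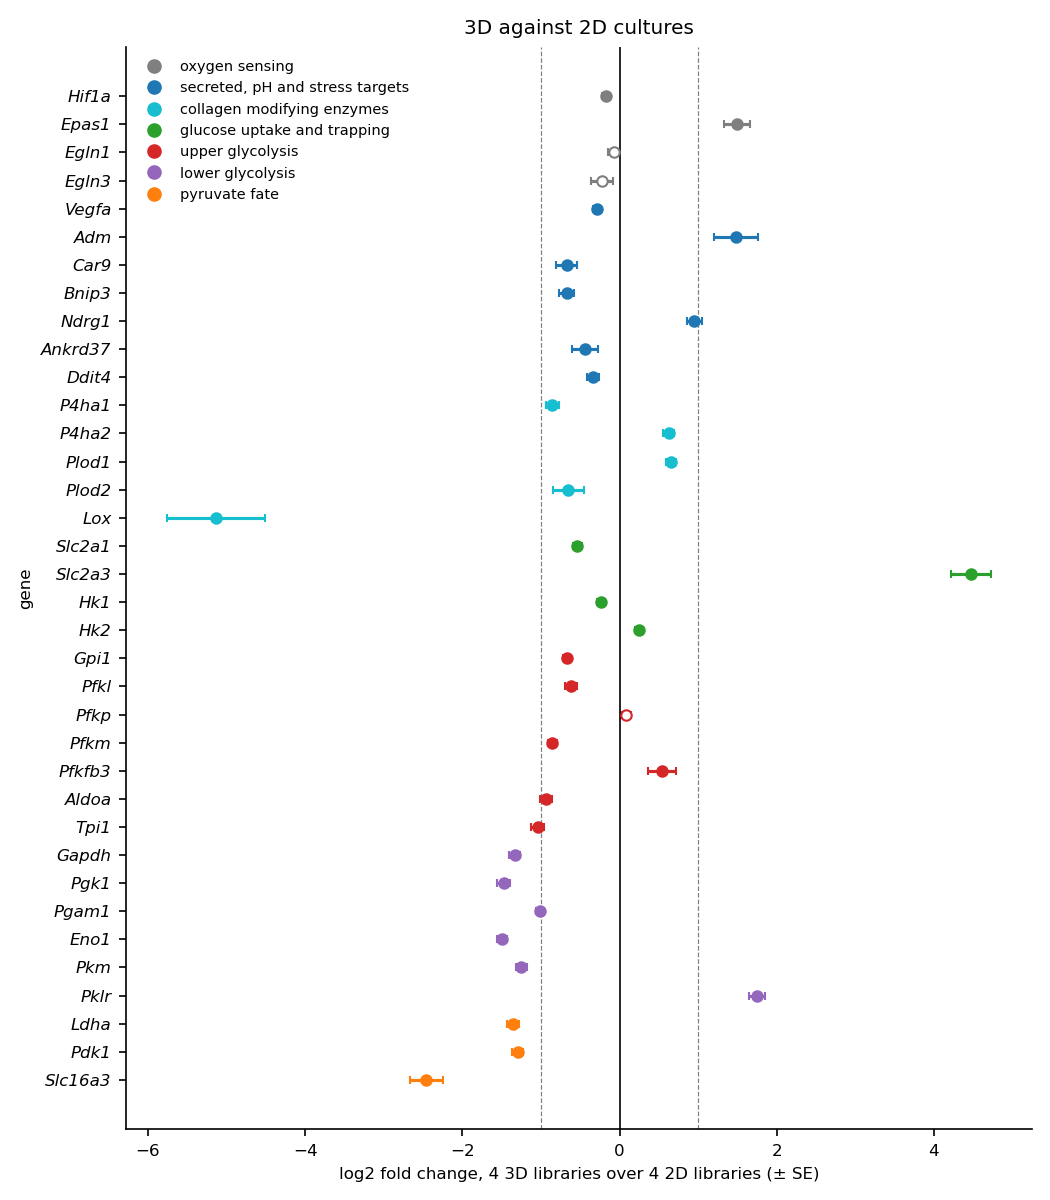
Log2 fold change of each gene in the 4 3D libraries over the 4 2D libraries (points, ± SE from edgeR), coloured by role, with dashed lines at -1 and 1. Filled points were called and the 3 open points (*Egln1*, *Egln3*, *Pfkp*) were not, and the points of lower glycolysis lie left of 0 except that of *Pklr*, while the value of *Lox* depends on the prior count since 3 of its 3D libraries held no read.

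Among the genes of oxygen sensing, the balance between the HIF alpha genes differed between 2D and 3D. *Epas1*, which encodes HIF2α, stood at 79.8, 90.2, 51.8 and 55.0 CPM in the 2D libraries (2D-iHs, then 2D-iHEs) and at 212, 205, 169 and 175 CPM in the 3D libraries (iHLOs, then iHEAs). No 3D library overlapped a 2D library, and the log2 fold change was 1.49 ± 0.16 (adjusted p = 5.06e-06). *Hif1a*, the gene of HIF1α, was at 95.1 to 100.4 CPM in 2D and 77.7 to 90.1 CPM in 3D, a log2 fold change of -0.18 ± 0.045 (adjusted p = 0.00384), and the *Hif1a* call was lost without both iHEA libraries (-0.11 log2, adjusted p = 0.0659). Per kilobase of exon, so that levels of different genes can be set side by side, *Epas1* made up 33.8% to 37.4% of the summed level of *Hif1a*, *Epas1* and *Hif3a* in 2D-iHs and 24.2% to 25.3% in 2D-iHEs, and 57.0% in both iHLO libraries and 54.5% to 55.5% in iHEAs. In adult liver that share was 82.4% to 82.7%, and in MEFs 6.46% to 6.60%. *Egln1* and *Egln3*, the genes of the prolyl hydroxylases PHD2 and PHD3, were not called in 3D against 2D, with log2 fold changes of -0.075 ± 0.072 and -0.22 ± 0.14. Both were called lower in iHEAs against 2D-iHEs, where 3 of the 4 genes of oxygen sensing were lower and 1 higher. In iHLOs against 2D-iHs 1 of the 4 was lower, 1 higher and 2 were not called. *Egln3* was at 103, 108, 93.6 and 90.2 CPM in 2D and 106, 92.6, 68.6 and 62.8 CPM in 3D, so that the iHLO libraries lay within the 2D range and both iHEA libraries below it.

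The secreted, pH and stress targets of HIF were lower in 3D in 5 of 7 cases and higher in 2, with small changes for most. In iHLOs against 2D-iHs, without iECs, only 3 were called lower, 2 higher and 2 were not called (median of -0.18 log2). In iHEAs against 2D-iHEs 5 were lower and 2 higher (median of -0.51 log2). *Vegfa*, the gene of the main angiogenic growth factor, was at 509, 535, 516 and 517 CPM in 2D and 439, 394, 428 and 391 CPM in 3D (-0.29 ± 0.046 log2, adjusted p = 0.000129). All 4 3D libraries were below all 2D libraries. *Car9*, which encodes a membrane carbonic anhydrase that helps export acid, was at 78.8, 87.6, 121 and 115 CPM in 2D and 68.5, 66.8, 54.6 and 55.5 CPM in 3D (-0.67 ± 0.14 log2). *Bnip3*, a mitophagy receptor gene (-0.67 ± 0.096 log2), *Ddit4*, an inhibitor of mTORC1 signalling (-0.33 ± 0.075), and the short ankyrin repeat gene *Ankrd37* (-0.44 ± 0.17) were lower as well. *Ankrd37* rested on 43 to 98 counts per culture library, and its call was lost when any 1 of 4 libraries was left out (the second 2D-iH, the second 2D-iHE and either iHEA library). *Ndrg1*, a stress-response gene raised in many cells by low oxygen, went the other way, at 622, 619, 588 and 587 CPM in 2D and 1321, 1215, 1117 and 895 CPM in 3D (0.95 ± 0.095 log2, adjusted p = 2.71e-06). *Adm*, the gene of the vasodilator peptide adrenomedullin, was 2.80-fold higher in 3D (1.49 ± 0.28 log2, adjusted p = 0.000469) at low levels of 1.28 to 2.87 CPM in 2D and 3.81 to 7.39 CPM in 3D.

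The collagen modifying enzymes did not move together. *P4ha1* and *P4ha2*, which encode the catalytic subunits of collagen prolyl 4-hydroxylase, changed in opposite directions. *P4ha1* was at 236, 226, 225 and 220.1 CPM in 2D and 139, 133, 119 and 97.6 CPM in 3D (-0.85 ± 0.087 log2, adjusted p = 3.29e-06). *P4ha2* was at 104, 106, 119 and 109.7 CPM in 2D and 174, 177, 169 and 141 CPM in 3D (0.63 ± 0.069 log2, adjusted p = 6.64e-06). Neither gene had a 3D library inside its 2D range. The lysyl hydroxylase genes split in the same way, with *Plod1* higher (0.65 ± 0.063 log2) and *Plod2* lower (-0.65 ± 0.20 log2). *Plod2* was at 137, 129.6, 140.3 and 146 CPM in 2D, at 119 and 104 CPM in iHLOs and at 59.4 and 59.5 CPM in iHEAs, with both iHEA libraries below both iHLO libraries. The *Plod2* call in 3D against 2D was lost when the libraries of a group were summed (adjusted p = 0.0827). *Lox*, which encodes the enzyme that crosslinks collagen and elastin, had 69, 57, 123 and 67 counts in the 2D libraries, 0 and 0 in iHLOs, and 8 and 0 in iHEAs. Against a floor of 3 counts per iHLO library, its 2D-iH level was at least 20.1-fold higher. These traces stand beside 59710 and 48860 counts in MEFs.

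Of the 4 genes of glucose uptake and trapping, 2 were higher and 2 lower in 3D, and the largest rise among the 36 genes was that of *Slc2a3*. *Slc2a3*, the gene of the high-affinity glucose transporter GLUT3 (chr6:122727809-122801640, minus strand, GENCODE M21 on GRCm38), stood at 6.02, 5.80, 2.23 and 2.23 CPM in 2D and 92.2, 106, 87.3 and 70.9 CPM in 3D. The lowest 3D library was thus far above the highest 2D library, and the log2 fold change was 4.47 ± 0.26 (adjusted p = 2.44e-08), 22.1-fold. *Slc2a1*, the gene of the widely expressed transporter GLUT1, was lower at 199.8, 181, 188 and 166 CPM in 3D against 264, 283, 276 and 272 CPM in 2D (-0.54 ± 0.054 log2, adjusted p = 3.09e-06). Per kilobase of exon, *Slc2a3* made up 0.982% to 1.09% of the summed level of *Slc2a1*, *Slc2a2* and *Slc2a3* in 2D-iHs, 0.390% to 0.395% in 2D-iHEs, 18.2% to 22.0% in iHLOs and 17.2% to 18.3% in iHEAs. *Slc2a2*, the transporter of mature hepatocytes, held at most 0.0871% of that sum in cultures and 94.8% to 95.5% in adult liver. The hexokinases, which trap glucose in the cell as its 6-phosphate, moved little and in opposite directions, with *Hk1* lower (-0.23 ± 0.048 log2) and *Hk2* higher (0.25 ± 0.043 log2).

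Upper glycolysis, from glucose 6-phosphate to the triose phosphates, was lower in 5 of 7 genes and higher in 1. *Aldoa*, the gene of aldolase A, was at 1383, 1511, 1449 and 1409.9 CPM in 2D and 820.3, 759.5, 743 and 605 CPM in 3D (-0.94 ± 0.078 log2, adjusted p = 5.98e-07). *Tpi1*, the triose phosphate isomerase gene, fell by about as much (-1.04 ± 0.080 log2), and *Gpi1*, which encodes glucose 6-phosphate isomerase, by less (-0.67 ± 0.047 log2). The phosphofructokinase genes, which encode the committed step, were unequal: *Pfkm* fell (-0.86 ± 0.055 log2), *Pfkl* fell (-0.62 ± 0.075 log2), and *Pfkp* was not called (0.080 ± 0.063 log2, adjusted p = 0.265). Per kilobase of exon, *Pfkp* held 18.4% to 19.6% of the family in 2D-iHs and 25.9% to 26.5% in iHLOs. *Pfkfb3*, whose product makes the activator fructose 2,6-bisphosphate, was higher (0.54 ± 0.18 log2, adjusted p = 0.0164), but without the second 2D-iH library the call was lost.

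In lower glycolysis, the part that yields ATP, 5 of 6 genes were lower and 1 higher. *Eno1*, *Pgk1*, *Gapdh*, *Pkm* and *Pgam1* were all lower by a log2 fold change of more than 1, as was *Ldha*, which acts on the pyruvate they yield. *Pgk1*, the phosphoglycerate kinase gene (chrX:106187100-106203699, plus strand), was at 1144, 1138, 954 and 925 CPM in 2D and 389, 388, 368 and 316 CPM in 3D (-1.47 ± 0.084 log2, adjusted p = 2.36e-08). The highest 3D library lay far below the lowest 2D library for this gene. *Gapdh* (chr6:125161715-125166467, minus strand), the glyceraldehyde 3-phosphate dehydrogenase gene to which the study scaled its qRT-PCR, was at 793, 787, 807 and 703 CPM in 2D and 321, 299.7, 315 and 256 CPM in 3D. Its log2 fold change of -1.34 ± 0.068 (adjusted p = 9.08e-09) is a 2.52-fold lower level in 3D. *Eno1*, the gene of enolase 1 (chr4:150236721-150248879, plus strand), was at 1185, 1231, 1209 and 1101 CPM in 2D and 439, 420.4, 416 and 351 CPM in 3D (-1.50 ± 0.065 log2). Reads of *Eno1* can be split with its retrotransposed copy *Eno1b*, which took 15.9% to 17.5% of the counts of the pair in MEFs and cultures but at most 0.018% in both livers. Why the livers differed from the other groups was not tested, and the difference bears on *Eno1* in comparisons with liver. The summed level of the pair was 1322 to 1491 CPM in 2D and 419 to 533 CPM in 3D, so the fall was as large with the copy included. *Pkm*, the pyruvate kinase gene of most tissues, was at 2831, 2919.6, 2684 and 2502 CPM in 2D and 1199.5, 1200.2, 1103 and 979.9 CPM in 3D (-1.25 ± 0.069 log2, adjusted p = 1.79e-08).

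*Pklr*, the gene of the pyruvate kinase of liver and red cells (chr3:89136142-89146784, plus strand), was the exception among these enzymes. It stood at 4.09, 4.67, 3.41 and 4.04 CPM in 2D and 13.8, 13.3, 12.1 and 13.9 CPM in 3D, a log2 fold change of 1.75 ± 0.10 (adjusted p = 2.61e-08), with no overlap between culture forms. Its share of pyruvate kinase, per kilobase of exon, nevertheless stayed low, at 0.222% to 0.247% in 2D-iHs, 1.69% to 1.74% in iHLOs and 1.67% to 2.14% in iHEAs, against 95.1% to 95.2% in adult liver and 60.7% to 65.9% in fetal liver. Erythroid markers summed to 31840 to 33841 CPM in fetal liver and at most 1.16 CPM in cultures, and the part of red cell precursors in the fetal level of *Pklr* was not tested.

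**Figure D3:**
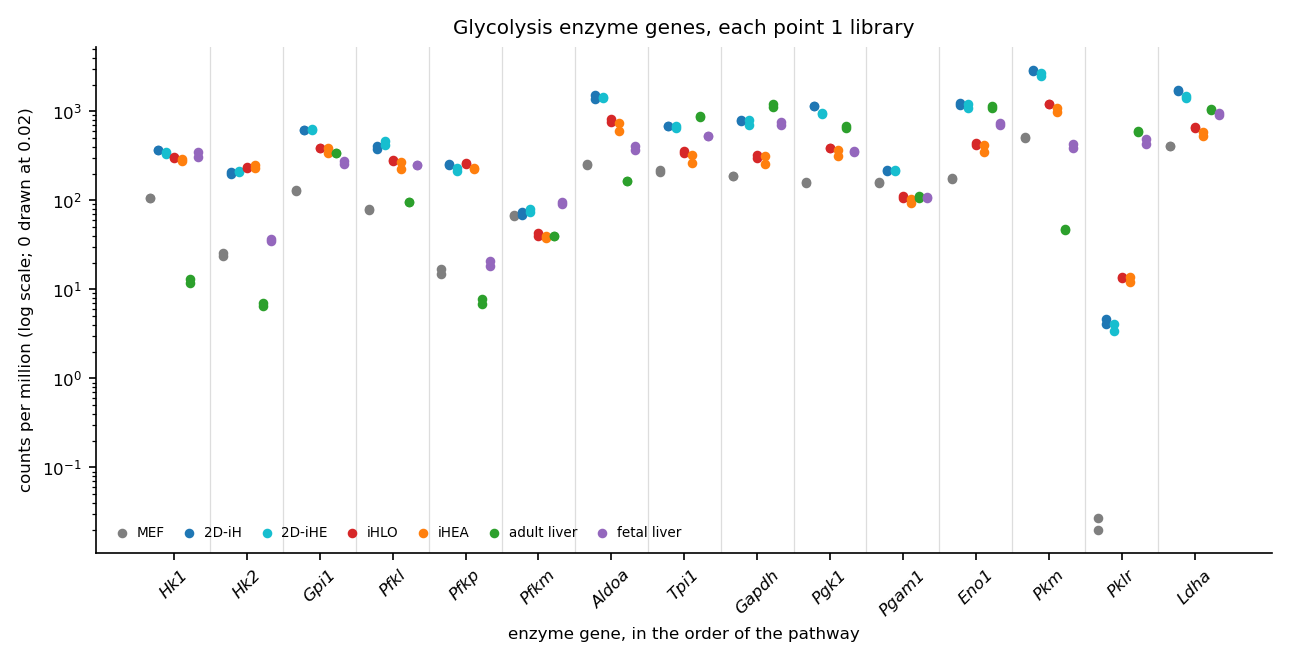
Level (CPM, log axis) of 15 enzyme genes from hexokinase to lactate dehydrogenase in the order of the pathway, each point 1 library, coloured by group. From *Aldoa* to *Ldha* the 4 2D libraries lie above the 4 3D libraries for every gene but *Pklr*, and MEFs lie lowest for *Gpi1*, *Pfkl*, *Tpi1*, *Gapdh*, *Pgk1*, *Eno1*, *Pklr* and *Ldha*.

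The genes that decide the fate of pyruvate fell with the pathway, in 3 of 3 cases. *Ldha*, the gene of the lactate dehydrogenase subunit that favours lactate (chr7:46841475-46855627, plus strand), was at 1717, 1721, 1505 and 1403 CPM in 2D and 659.7, 643, 583 and 533 CPM in 3D (-1.35 ± 0.080 log2, adjusted p = 3.11e-08). *Pdk1*, whose product inhibits pyruvate dehydrogenase and so holds back the conversion of pyruvate to acetyl-CoA, was at 106, 103, 122 and 121 CPM in 2D and 47.5, 47.8, 42.2 and 42.0 CPM in 3D (-1.30 ± 0.071 log2, adjusted p = 1.53e-08). *Slc16a3*, the gene of the lactate exporter MCT4, was 5.50-fold lower (-2.46 ± 0.21 log2, adjusted p = 7.13e-07), from 7.95 to 12.2 CPM to 1.34 to 2.67 CPM. Within the pyruvate dehydrogenase kinases, *Pdk1* held 59.8% to 60.1% of the summed level per kilobase in 2D-iHs and 29.4% to 29.5% in iHLOs, where *Pdk2* held 17.6% to 18.4% and 54.9% to 57.2%. Taken over the 15 enzyme genes from *Hk1* to *Ldha*, the summed level was 10772 to 12153 CPM in 2D and 4751 to 5824 CPM in 3D. As a share of all counts, with no scaling between libraries, it was 1.25% to 1.36% in 2D, 0.570% to 0.680% in 3D and 0.274% to 0.279% in MEFs.

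**Figure D4:**
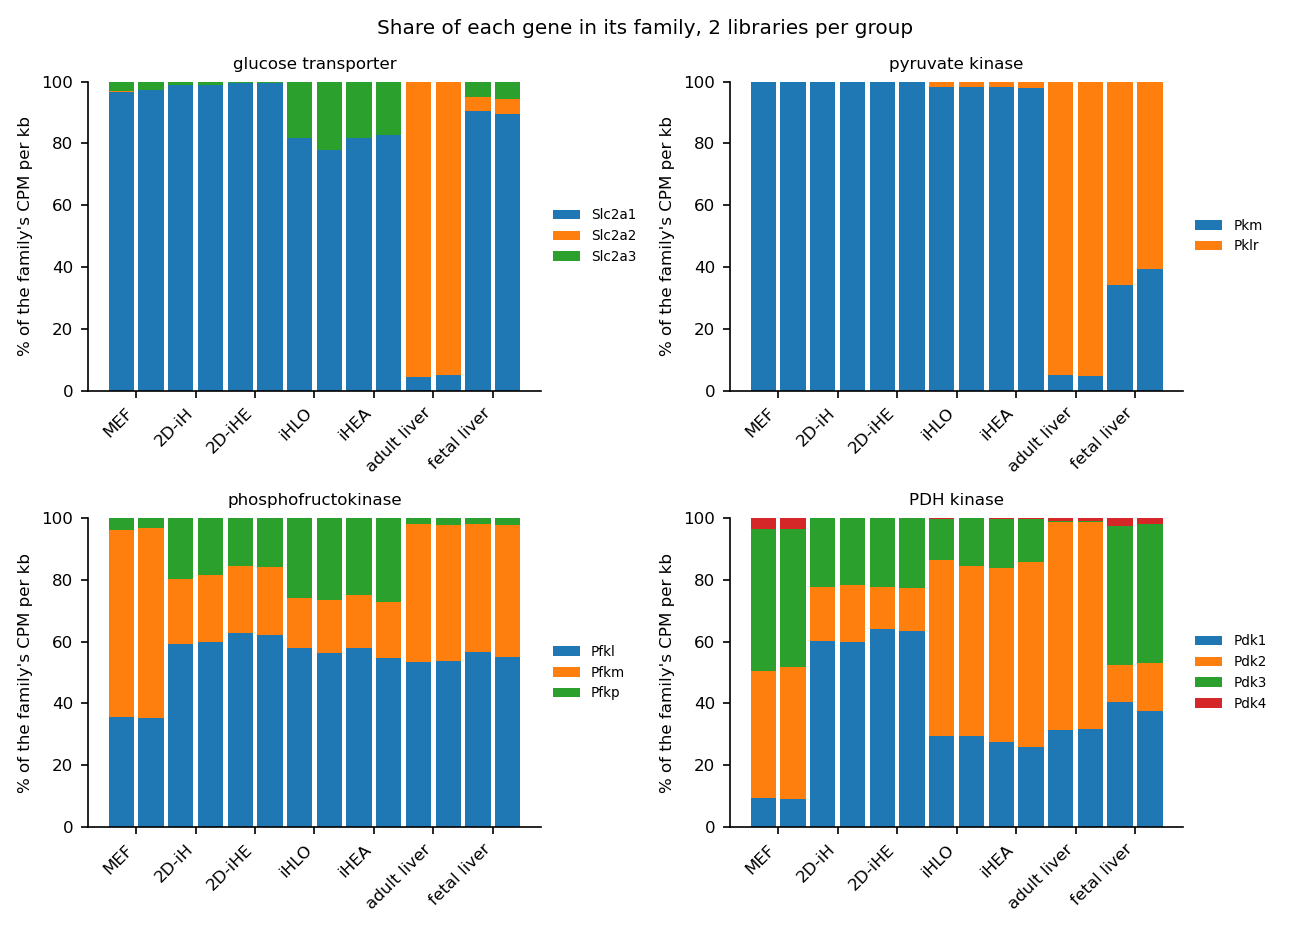
Share of each gene in the summed CPM per kilobase of exon of its family, for glucose transporters, pyruvate kinases, phosphofructokinases and pyruvate dehydrogenase (PDH) kinases, with 1 bar per library and 2 bars per group. In 3D cultures *Slc2a3*, *Pfkp* and *Pdk2* take larger shares than in 2D, while the shares of adult liver (*Slc2a2* and *Pklr*) stay small in all 4 culture groups.

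Other genes of the same pathways were counted from 6 lists set beside the 36 genes. The pentose phosphate branch, which starts from glucose 6-phosphate, was lower in 3D in 7 of 7 genes, led by *Pgd* (-1.57 ± 0.045 log2) and *Taldo1* (-1.22 ± 0.068 log2). Of 17 other HIF targets tested out of 19, 13 were lower and 2 higher, and among the lower genes were *Gbe1* (-1.88 ± 0.070 log2) and *Fam162a* (-1.56 ± 0.038 log2). Among 9 HIF regulators tested out of 10, 6 were higher and 2 lower, and *Egln2*, the gene of the prolyl hydroxylase PHD1, had the largest difference at 1.14 ± 0.042 log2. Genes of pyruvate entry into mitochondria were lower in 5 of 9 cases, none by a log2 fold change of 1. Other isoforms of the glycolytic enzymes were higher in 6 and lower in 4 of 15 tested out of 18, and among the higher genes were *Hkdc1* (2.82 ± 0.095 log2) and *Pdk2* (1.69 ± 0.074 log2). Of 4 genes of gluconeogenesis, only *Pcx*, the pyruvate carboxylase gene, passed the filter on low counts, and it was higher (0.80 ± 0.082 log2). It is named because it is the 1 gene tested. All of these counts are read against the backgrounds of 38.7% higher and 37.2% lower given above.

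The next comparison was of cultures with and without iECs. In iHEAs against iHLOs, 6 genes (16.7%) were called lower and 0 higher, beside 1.07% and 1.19% of all genes. The 6 were *Epas1*, *Egln3*, *Car9*, *Bnip3*, *P4ha1* and *Plod2*, and of these *Egln3* (-0.59 ± 0.067 log2, adjusted p = 0.000595) and *Plod2* (-0.90 ± 0.065 log2, adjusted p = 2.99e-05) kept their calls in all 14 alternatives. At an unadjusted p below 0.05 in edgeR's test, 22 of the 36 genes passed (61.1%), beside 12.7% of all genes. Of these, 21 were lower and 1 was higher, *Lox*, with 8 reads in 1 iHEA library and none in the others, and DESeq2 called 0 higher and 9 lower. The 2 iHEA libraries differed more from each other than the libraries of most groups, with a chi-square per gene of 11.3 against 3.12 to 3.68 in MEFs, 2D-iHs, 2D-iHEs, iHLOs and adult liver. Only fetal liver had a larger value, at 13.5. Without the first iHEA library 20 genes were lower. Without either 2D-iHE library or the first iHLO library 2 were lower, without the second iHLO library 3, and without either 2D-iH library 4. The summed endothelial markers were lower with co-culture too (864 to 929 CPM in iHEAs, 1198 to 1337 CPM in iHLOs, 3 of 5 tested called lower). Of 4 hepatocyte markers tested 1 was called lower (sums of 281 to 342 CPM in iHEAs and 364 to 391 CPM in iHLOs), and of 4 fibroblast markers 1 (4.35 to 6.12 CPM and 5.08 to 11.1 CPM). The part of these markers in the result was not tested.

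In 2D, 5 genes (13.9%) were called higher and 6 (16.7%) lower in 2D-iHEs than in 2D-iHs, beside 4.26% and 3.92% of all genes, and under scaling by total counts the higher share of all calls went from 52.1% to 64.6%. *Car9*, *Egln1*, *Ddit4*, *Pfkfb3* and *Pdk1* were higher, and *Epas1*, *Adm*, *Slc2a3*, *Pfkp*, *Pgk1* and *Ldha* lower. *Slc2a3* was at 6.02 and 5.80 CPM in 2D-iHs and 2.23 and 2.23 CPM in 2D-iHEs (-1.40 ± 0.18 log2, adjusted p = 0.000549). *Car9* was at 78.8 and 87.6 CPM in 2D-iHs and 121 and 115 CPM in 2D-iHEs (0.52 ± 0.058 log2, adjusted p = 0.000208). *Epas1* was at 79.8 and 90.2 CPM in 2D-iHs and 51.8 and 55.0 CPM in 2D-iHEs (-0.66 ± 0.068 log2, adjusted p = 9.67e-05). These 3 calls held in all 16 alternatives. Without the first 2D-iHE library 1 gene was higher, without the second, or without the first 2D-iH library, 2, and without the second 2D-iH library or either iHLO library 3. Without any 1 of the 4 2D libraries 2 genes were lower, and without either iHEA library 9 were higher and 8 lower. Markers moved with this comparison as well. Fibroblast markers summed to 3.73 to 3.97 CPM in 2D-iHs and 10.6 to 12.3 CPM in 2D-iHEs, with 1 of 4 tested called higher, and endothelial markers to 467 to 474 CPM and 407 to 420 CPM, with 3 of 5 tested called lower. Of 4 hepatocyte markers tested 2 were lower, with sums of 295 to 316 CPM and 282 to 306 CPM. The part of these markers in the result was not tested.

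The effect of co-culture itself differed between 3D and 2D for 7 of the 36 genes, tested as an interaction, with 2 higher and 5 lower beside 1.52% and 1.62% of all genes. *Car9* rose with co-culture in 2D and fell with it in 3D (-0.29 ± 0.061 log2), and the difference of the effects was -0.81 ± 0.084 log2 (adjusted p = 0.00027). *Plod2* differed by -1.02 ± 0.090 log2 (adjusted p = 0.000112) and *Pdk1* by -0.40 ± 0.067 log2 (adjusted p = 0.00671). These 3 held in all 14 alternatives. *Egln3* (-0.41 ± 0.094 log2) and *Bnip3* (-0.49 ± 0.11 log2) were also lower, and *Slc2a3* (1.08 ± 0.20 log2) and *Epas1* (0.39 ± 0.092 log2) higher. Each of those 4 calls was lost without the first 2D-iHE library and also without the second, when 0 genes were higher and 3 lower. Without either 2D-iH library or the first iHLO library 1 was higher and 3 lower, without the second iHLO library 1 was higher, and without the unnumbered iHEA library 3 were higher. Without the first iHEA library 17 genes were lower. No gene of lower glycolysis was called in the interaction. Of the cell type and cell division markers tested, 1 was called, the fibroblast marker *Col1a1* (-3.44 ± 0.38 log2, adjusted p = 0.000498), and its part in the result was not tested.

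**Figure D5:**
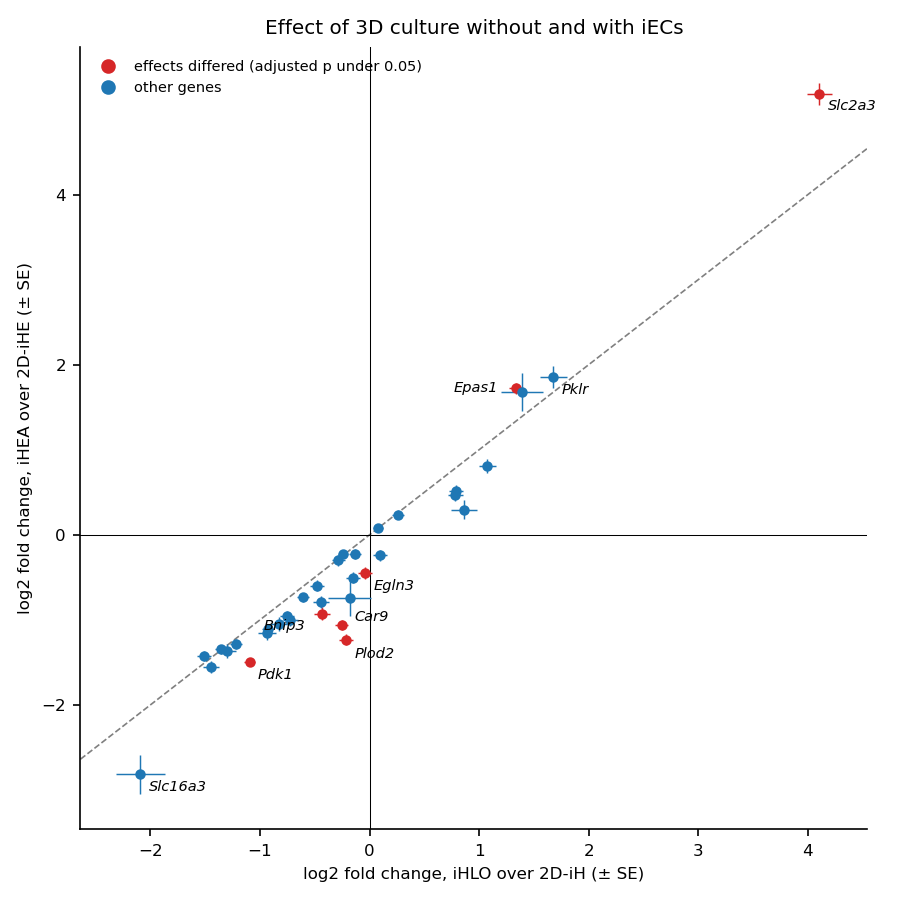
Log2 fold change of 3D over 2D culture without iECs (iHLOs over 2D-iHs, x axis) against that with iECs (iHEAs over 2D-iHEs, y axis) for 35 genes, ± SE from edgeR, with the dashed line where both are equal and *Lox* left out because iHLOs held no read of it. The 7 genes whose effects differed are red, and *Slc2a3* lies above the line while *Car9*, *Plod2* and *Pdk1* lie below it.

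The comparison of 2D-iHs with MEFs set the converted cells beside the kind of cell they were made from, and here most genes were higher in 2D-iHs. By the study's methods MEFs were kept in a serum medium and 2D-iHs in the mixed hepatic and endothelial medium. Conversion and medium therefore changed together and cannot be told apart. Of the 36 genes, 29 were called higher and 6 lower, with 45.7% and 38.2% of all 14121 genes tested as background. When a change of 1 or more on the log2 scale was also asked for, 24 were higher and 4 lower, beside 23.7% and 21.5%. Cell division markers summed to 607 to 625 CPM in MEFs and 1169 to 1249 CPM in 2D-iHs (6 of 6 called higher). Fibroblast markers were lower in 5 of 5 cases tested, and endothelial markers were higher in 4 of 6 (2.12 to 2.89 CPM in MEFs, 467 to 474 CPM in 2D-iHs), hepatocyte markers in 3 of 6 (0.0979 to 0.136 CPM and 295 to 316 CPM) and leukocyte markers in 2 of 4 (4.17 to 4.54 CPM and 23.1 to 24.4 CPM). The part of these markers in the result was not tested. The median over the 36 genes was 2.10 log2, against 0.11 log2 over all genes. Every gene of lower glycolysis (6 of 6), glucose uptake (4 of 4) and pyruvate fate (3 of 3) was higher, as were 6 of 7 secreted, pH and stress targets. *Egln3* went from 0.845 and 0.849 CPM in MEFs to 103 and 108 CPM in 2D-iHs (6.95 ± 0.12 log2, adjusted p = 1.35e-16). *Car9* was at 3.92 and 4.44 CPM in MEFs (4.31 ± 0.096 log2), *Ndrg1* at 43.5 and 42.5 CPM (3.84 ± 0.093 log2) and *Vegfa* at 51.8 and 55.8 CPM (3.27 ± 0.074 log2). Among the glycolytic enzymes, *Pfkp* rose the most apart from *Pklr* (3.97 ± 0.075 log2), followed by *Hk2* (3.01 ± 0.064), *Pgk1* (2.83 ± 0.073) and *Eno1* (2.77 ± 0.084). *Pklr* had 1 and 0 counts in the MEF libraries and 150 and 153 in 2D-iHs. *Hif1a* was lower in the converted cells, at 100.4 and 96.2 CPM against 221 and 218 CPM (-1.17 ± 0.053 log2, adjusted p = 7.36e-12). Also lower were *Lox*, at 1627 and 1595 CPM in MEFs and 1.88 and 1.74 CPM in 2D-iHs, *Adm*, *P4ha2*, *Plod1* and *Pfkfb3*.

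The comparison of 2D-iHs with MEFs was set beside that of iHEAs with 2D-iHEs, with which it shares no library. Of the 29 genes higher in 2D-iHs than in MEFs, 23 (79.3%) were lower in 3D, which is 88.5% of the 26 lower there. Over all genes tested in both, 44.7% of those higher in 2D-iHs than in MEFs were lower in 3D, 62.1% of those lower there. Of the 15 enzyme genes from *Hk1* to *Ldha*, all but *Pgam1* and *Pfkm* stayed above the MEF level in every 3D library. *Pkm*, for example, was at 497 and 517 CPM in MEFs, 2831 and 2919.6 CPM in 2D-iHs and 1199.5 and 1200.2 CPM in iHLOs, and *Ldha* at 413 and 411 CPM in MEFs, 1717 and 1721 CPM in 2D-iHs and 659.7 and 643 CPM in iHLOs. *Pgam1* and *Pfkm* were below the MEF level in 3D, as was *Slc16a3*, with *Pgam1* at 156 and 159.9 CPM in MEFs and 112, 108, 103 and 92.7 CPM in 3D.

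The values of the tissues depended on the scaling. *Alb* alone took 22.5% and 23.6% of the counts of adult liver and its TMM factors were 0.429 and 0.438, against 1.11 to 1.20 elsewhere. In adult against fetal liver the median of all genes was -0.096 log2 under TMM, 0.018 under DESeq2 size factors and -1.52 under total counts, and values are therefore given relative to that median. Under TMM 17 of the 36 genes were higher and 17 lower in adult liver, beside 40% and 43.8% of all genes (5 and 14 with a log2 fold change of at least 1, beside 25.3% and 26.9%), and under total counts 4 were higher and 31 lower. The higher share of all calls went from 47.7% to 17.7%. Relative to the median, 6 genes were above by at least 1 and 14 below under both of these scalings, beside 27.3% and 26.3% of all genes under TMM. *Epas1* (3.61 log2 relative to the median), *Bnip3* (3.61), *Vegfa* (2.55) and *Egln3* (2.28) were higher in adult liver in each scaling. All 17 lower genes kept their sign, among them *Slc16a3* (-5.62), *Slc2a3* (-5.37), *Slc2a1* (-4.61), *Hk1* (-4.60) and *Pkm* (-3.01). The other 13 higher genes, *Gapdh*, *Pgk1*, *Eno1* and *Ldha* among them, had a log2 fold change below 0 under total counts.

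Fetal liver held 552 and 439 CPM of *Slc2a1* and 74.4 and 76.2 CPM of *Slc16a3*, where adult liver held 18.6 ± 1.94 CPM (SD, n = 2) of *Slc2a1* and 1.36 and 1.43 CPM of *Slc16a3*. Both genes, for glucose uptake and lactate export, were thus far apart without overlap, and erythroid markers, which summed to 562 to 612 CPM in adult liver and 31840 to 33841 CPM in fetal liver, moved with them, as did cell division markers (100.1 to 104 CPM in adult and 3308 to 3696 CPM in fetal liver), and the part of either in the result was not tested. In adult liver hepatocyte markers (6 of 6 tested, 542585 to 581152 CPM against 10818 to 13671 CPM) and leukocyte markers (4 of 4, 460 to 482 CPM against 116 to 144 CPM) were called higher too, and 4 of 5 fibroblast markers lower and 1 higher (332 to 366 CPM against 1086 to 1873 CPM). Of 6 endothelial markers 3 were higher and 1 lower (293 to 295 CPM against 269 to 276 CPM). Their part in the difference between the livers was not tested. The 2 fetal liver libraries differed more from each other than those of any other group, with a chi-square per gene of 13.5 against 3.68 in adult liver.

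Finally, iHLOs were set against adult liver. Under TMM 20 genes were higher and 12 lower in iHLOs, beside 45.7% and 39.2% of all genes, and under total counts 29 and 4, with the higher share of all calls going from 53.9% to 80.2% and the median of all genes from 0.13 to 1.56 log2. Relative to that median, 16 genes were above by at least 1 and 8 below in both scalings, beside 24.8% and 28.5% of all genes under TMM. All 20 higher genes kept their sign, and of the 12 lower genes *Bnip3*, *Gapdh*, *Pklr* and *Pdk1* did. *Car9* (6.48 log2 relative to the median), *Ndrg1* (6.23), *Slc2a3* (6.04), *Plod2* (5.60), *Pfkp* (4.97), *Hk2* (4.93) and *Pkm* (4.50) lay highest above adult liver. Of the called genes, *Pklr* lay farthest below it (-5.63), followed by *Pdk1* (-2.62) and *Bnip3* (-2.37). In iHLOs *Ndrg1* was at 1321 and 1215 CPM and in adult liver at 15.2 and 14.6 CPM, and *Pfkp* at 256 and 263 against 6.93 and 7.76 CPM. Markers of other cell types moved with this comparison. In iHLOs, hepatocyte (6 of 6 tested), erythroid (6 of 6), fibroblast (5 of 5) and leukocyte markers (4 of 4) were called lower, and 5 of 6 cell division markers higher. Endothelial markers split, with 3 of 6 higher and 3 lower and sums of 1198 to 1337 CPM in iHLOs and 293 to 295 CPM in adult liver. Leukocyte markers summed to 21.1 to 21.4 CPM in iHLOs, where *Ptprc* and *Adgre1* had at most 3 counts, and to 460 to 482 CPM in adult liver. Erythroid markers summed to 0.852 to 1.16 CPM in iHLOs and 562 to 612 CPM in adult liver, and cell division markers to 219 to 246 CPM and 100.1 to 104 CPM. Their part in the result was not tested.

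Across all 7 groups, the mean level was highest in 2D-iHs for 10 genes, in adult liver for 8, in 2D-iHEs for 6, in iHLOs and fetal liver for 4 each, in MEFs for 3 and in iHEAs for 1, and 25 of the 36 genes kept their highest group when levels were taken per total count. Under total counts only 1 gene was highest in adult liver and 12 in 2D-iHEs. The genes highest in 2D-iHs were largely those of glycolysis, namely *Hk1*, *Aldoa*, *Pgk1*, *Pgam1*, *Eno1*, *Pkm* and *Ldha*, and for *Aldoa*, *Pgam1* and *Eno1* the 2D-iH and 2D-iHE libraries overlapped. *Slc2a3*, *Ndrg1*, *P4ha2* and *Pfkp* were highest in iHLOs. The lowest group was MEFs for 14 genes and adult liver for 13 under TMM.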

How the data were processed

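RNA was sequenced as 150 bp paired-end reads on an Illumina NovaSeq instrument from 14 libraries, 2 in each of 7 groups. Per the study's methods and the submitters' processing notes, the authors trimmed reads with Trimmomatic 0.36, aligned them to mm10 with HISAT2 and deposited raw gene counts from HTSeq, with Cufflinks named among the tools. Strand and multi-mapping settings are not given in the sources used here. Deposited count columns were matched to samples by name, with 0 columns left unmapped. The name of 1 iHEA column carried the number of the second iHEA sample and the bracketed code of the first, which conflict, so it was used as an unnumbered replicate of the group.

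Counts were analysed with edgeR 4.0.16 (R 4.3.3, limma 3.58.1) by the quasi-likelihood test with TMM scaling, after a filter on the mean log2(count + 1) of at least 3. The 2D and 3D cultures were fitted over 8 libraries and MEFs and livers over 14, with Benjamini-Hochberg adjustment over all genes tested. CPM were computed from the deposited counts by TMM over 14 libraries. Shares within gene families were taken per kilobase of GENCODE M21 exon. Sums over markers, over the enzyme genes and over *Eno1* with *Eno1b* were not scaled to length. DESeq2 1.42.0, other scalings and filters, left-out libraries, summed libraries and a replicate block were tried as alternatives, and the scripts were tested on simulated data with 200 changed genes. All 36 genes were to be named, and of each list of other pathway genes at most the 3 with the largest absolute log2 fold change in 3D against 2D among those called with at least 1. *Pcx* was named outside this rule, and other isoforms of the glucose transporters and PDH kinases for their shares. Some genes of the lists are counted but not reported here by name. The 36 genes and the lists were chosen with earlier results of these data known. Promoters came from RefSeq on GRCm38.p6. Same-numbered libraries did not deviate together (Pearson's r from -0.0563 to 0.0364 across genes). Depth was 20851489 to 35143325 counts per library, and counting intervals cover counting error only.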

Additional observations from a re-analysis of the deposited data

Results flagged for a closer look

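In 4 of 72 sets of 4 culture libraries (the 36 genes in 2D and in 3D), 1 library lay apart from the other 3, with a gap on the log2 scale to its nearest neighbour that exceeded the 95% critical value of Dixon's test for 4 values. Chance alone gives about 1 in 20 such sets. The gap was 0.873 of the range for *Ddit4* in the unnumbered iHEA library, 0.941 for *Lox* in the first iHEA library, 0.839 for *Gpi1* in the first 2D-iHE library and 0.977 for *Gpi1* in the unnumbered iHEA library. For *Lox* the other 3 libraries held no read. Its gap was therefore set by library size and the value added to each count, and it measures no spread. *Ddit4* was at 227, 227, 223 and 197 CPM in the 3D libraries, and *Gpi1* at 393, 393, 392 and 344 CPM in 3D and 615, 618, 640.3 and 614 CPM in 2D.

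The effect of co-culture with iECs differed between 3D and 2D for 7 genes, by edgeR's test of the difference itself. The difference, 3D minus 2D, was 0.388 log2 for *Epas1*, -0.411 for *Egln3*, -0.811 for *Car9*, -0.495 for *Bnip3*, -1.02 for *Plod2*, 1.08 for *Slc2a3* and -0.403 for *Pdk1*.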

How the results depend on the processing

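Of 4146 values under alternatives, 3972 kept their direction and their side of the threshold, 145 lost and 6 gained a call, and 23 changed sign. These values covered all 36 genes in 3D against 2D but only the genes already called in the other comparisons. A gained call could thus be counted in 3D against 2D only, and gains elsewhere appear in the counts below. In 3D against 2D, 29 of 33 calls held in all 19 alternatives (8 higher, 21 lower, without *Hif1a*, *Ankrd37*, *Plod2* and *Pfkfb3*), in iHLOs against 2D-iHs 29 of 31, in iHEAs against 2D-iHEs 33 of 35, and in 2D-iHs against MEFs 32 of 35. The causes of the changes below were not tested. With a log2 fold change of at least 1 required, the genes higher, the genes lower and all genes called were 4, 10 and 3223 in 3D against 2D, 5, 8 and 3302 in iHLOs against 2D-iHs, and 4, 14 and 3236 in iHEAs against 2D-iHEs. For iHEAs against iHLOs it left 0 lower and 62 in all, for 2D-iHEs against 2D-iHs 0, 1 and 73, and for the interaction 1, 1 and 59. It left 6385 in all for 2D-iHs against MEFs, 5 higher and 7362 in all for adult against fetal liver, and 7 lower and 7461 in all for iHLOs against adult liver. The main counts of all genes were 10179, 9691, 9509, 303, 1096, 421, 11849, 11820 and 11993, in that order. With no filter, iHEAs against iHLOs had 1 higher, 18 lower and 881 in all, 2D-iHEs against 2D-iHs had 8 higher, and the interaction had 15 lower and 901 in all. With all 14 libraries in the fit, 3 were lower in iHEAs against iHLOs, 3 higher in 2D-iHEs against 2D-iHs and 3 lower in the interaction. Under total counts, 4 were higher and 31 lower in adult against fetal liver, 4 were lower in iHLOs against adult liver, and 12 genes were highest in 2D-iHEs and 1 in adult liver.

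With the replicate block, which had to leave out iHEAs because the numbers in the name of 1 of their columns conflict, 2D-iHEs against 2D-iHs had 9 higher and 1952 genes in all, and the same libraries without the block gave 9 and 2029, an alternative chosen after seeing the data. The numbers did not pair the libraries. *Egln3* in 3D against 2D was 0.058 log2 with the block and 0.059 with the same libraries without it, and -0.22 otherwise. For the comparisons with iHEAs and the interaction no paired analysis was possible because the column with conflicting numbers leaves iHEAs with fewer than 2 numbers.

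When each library was left out in turn, the spread for a group left with 1 library came from the other groups. In 3D against 2D each side still held libraries of both its groups. Genes higher and lower there ranged from 8 to 9 and 23 to 25, with 9798 to 10003 genes in all. They ranged from 0 to 1 and 2 to 20 in iHEAs against iHLOs (93 to 723 in all), from 1 to 9 and 2 to 8 in 2D-iHEs against 2D-iHs (250 to 2014), and from 0 to 3 and 3 to 17 in the interaction (129 to 959). They ranged from 27 to 29 and 6 to 6 in 2D-iHs against MEFs (11032 to 11981), from 16 to 18 and 16 to 17 in adult against fetal liver (11156 to 11976), and from 18 to 20 and 11 to 14 in iHLOs against adult liver (11275 to 12117).

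Under total counts, log2 fold changes of adult over fetal liver that were above 0 turned to -1.05 for *Hif1a*, -1.12 for *Egln1*, -0.59 for *Ankrd37*, -0.90 for *Ddit4*, -0.82 for *Plod1*, -1.04 for *Gpi1*, -0.68 for *Tpi1*, -0.72 for *Gapdh*, -0.47 for *Pgk1*, -0.77 for *Eno1*, -1.02 for *Pklr*, -1.25 for *Ldha* and -0.10 for *Pdk1*. Those of iHLOs over adult liver that were below 0 turned to 0.94 for *Epas1*, 0.85 for *Ankrd37*, 0.79 for *Plod1*, 0.31 for *Pfkfb3*, 0.066 for *Tpi1*, 0.61 for *Pgk1*, 0.012 for *Eno1* and 0.70 for *Ldha*. Depth limited the low genes: *Lox* had no read in 3 of the 4 3D libraries, and *Ankrd37* had 43 to 98 counts in cultures.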
